A study of Mus musculus with 10 samples.

Results

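Sphingosine 1-phosphate (S1P) receptors and the enzymes and carrier that make, export and remove S1P were examined in bEnd.3 cells, an immortalised mouse brain endothelial cell line. The genes were chosen by name, with 8 on the list: the receptors *S1pr1*, *S1pr2* and *S1pr3*, the sphingosine kinases *Sphk1* and *Sphk2*, the exporter *Spns2*, the lyase *Sgpl1* and the phosphatase *Plpp3*. Of these, 7 had a row among the 27024 rows with a gene name. *S1pr3* was not analysed here. A mean FPKM of at least 1, the minimum for the test across genes, was reached by 6 of the 7, among 11062 genes tested, and *Sphk1* fell under it. FPKM divides the sequenced fragments of a gene by its length in kilobases and by the sequencing depth, so it also allows levels to be compared between genes.

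Wild-type cells received saline (5 samples, replicates 1, 2, 3, 4 and 5) or 5 nM StcE (5 samples, replicates 1, 2, 3, 5 and 6) in growth medium for 16 h. StcE is a bacterial protease specific for mucin domains, stretches of protein covered with O-glycans, and the comparison asked how the loss of these mucin domains alters the transcripts of brain endothelial cells. No group with inactive enzyme was analysed here, so other effects of the enzyme preparation cannot be told apart from mucin cleavage. The labels do not say that the samples came from separate cultures, and p-values then measure the spread between these samples, which may be technical.

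S1P is a signalling lipid that sphingosine kinases make from sphingosine, the backbone released from ceramide. Endothelial cells export it through SPNS2, and it acts on G-protein-coupled receptors at the cell surface. S1PR1 couples to Gi and is known to strengthen endothelial junctions and to limit the permeability of the blood–brain barrier, whereas S1PR2 also couples to G proteins that activate RHOA and is known to loosen junctions. The lyase SGPL1 degrades S1P irreversibly in the endoplasmic reticulum, and the surface phosphatase PLPP3 dephosphorylates extracellular S1P and lysophosphatidic acid.

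The endothelial label was checked against marker genes. All 8 endothelial markers were expressed, between 13.2 and 542.9 FPKM. Past the threshold used below, 5 of them were lower after StcE, as were 6.41% of all genes tested. *Cdh5* and *Kdr* were lower without passing (limma adjusted p = 0.0515 and 0.138). *Cldn5* did not fall, with 309.6 ± 19.8 and 315.4 ± 27.5 FPKM (SD, n = 5 each, limma adjusted p = 0.842). The summed level of the 8 was 1598 to 1737 FPKM in saline samples and 1509 to 1598 FPKM in StcE samples. Most markers of other cell types were at or near 0. The highest was *Acta2* of the pericyte and smooth muscle list, at 1.92 to 4.92 FPKM, followed by the neuronal *Stmn2* at 0.970 to 1.43 FPKM, while the 4 astrocyte markers reached at most 0.0827 FPKM. Summed levels of these other lists overlapped between the groups. Depth was recovered from the FPKM values as 22028937 to 33374078 fragments per sample, and fragment numbers below cover counting error only.

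After 16 h of StcE, *S1pr1* and *Sphk2* fell and *Spns2* rose, all by small amounts (-5.88%, -9.13% and 10.3% of the saline mean). These 3 of the 6 tested members were past the threshold, an adjusted p under 0.05 from limma on log2(FPKM + 1), as were 11.9% of all genes tested (5.52% higher and 6.41% lower after StcE). The groups of these 3 did not overlap, as was the case for 10.7% of all genes tested (4.85% higher and 5.8% lower). *S1pr2*, *Sgpl1* and *Plpp3* did not pass. *Sphk1*, the least expressed, averaged 2.02 times its saline level on very few fragments. The median difference was 0.040 on the log2(FPKM + 1) scale over the 6 tested members and -6.6e-04 over all genes tested.

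The level of the members spanned more than 3 orders of magnitude, from *S1pr1*, the 179th most abundant of all rows by mean FPKM, through *Spns2* (378th), *Plpp3* (1659th), *Sphk2* (4632nd), *Sgpl1* (5283rd) and *S1pr2* (10343rd) to *Sphk1* (15139th). No neighbours in this order overlapped in FPKM in any sample of either group. The closest were *Sphk2*, with a lowest value of 10.2 FPKM, and *Sgpl1*, with a highest value of 9.57 FPKM.

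**Figure D1:**
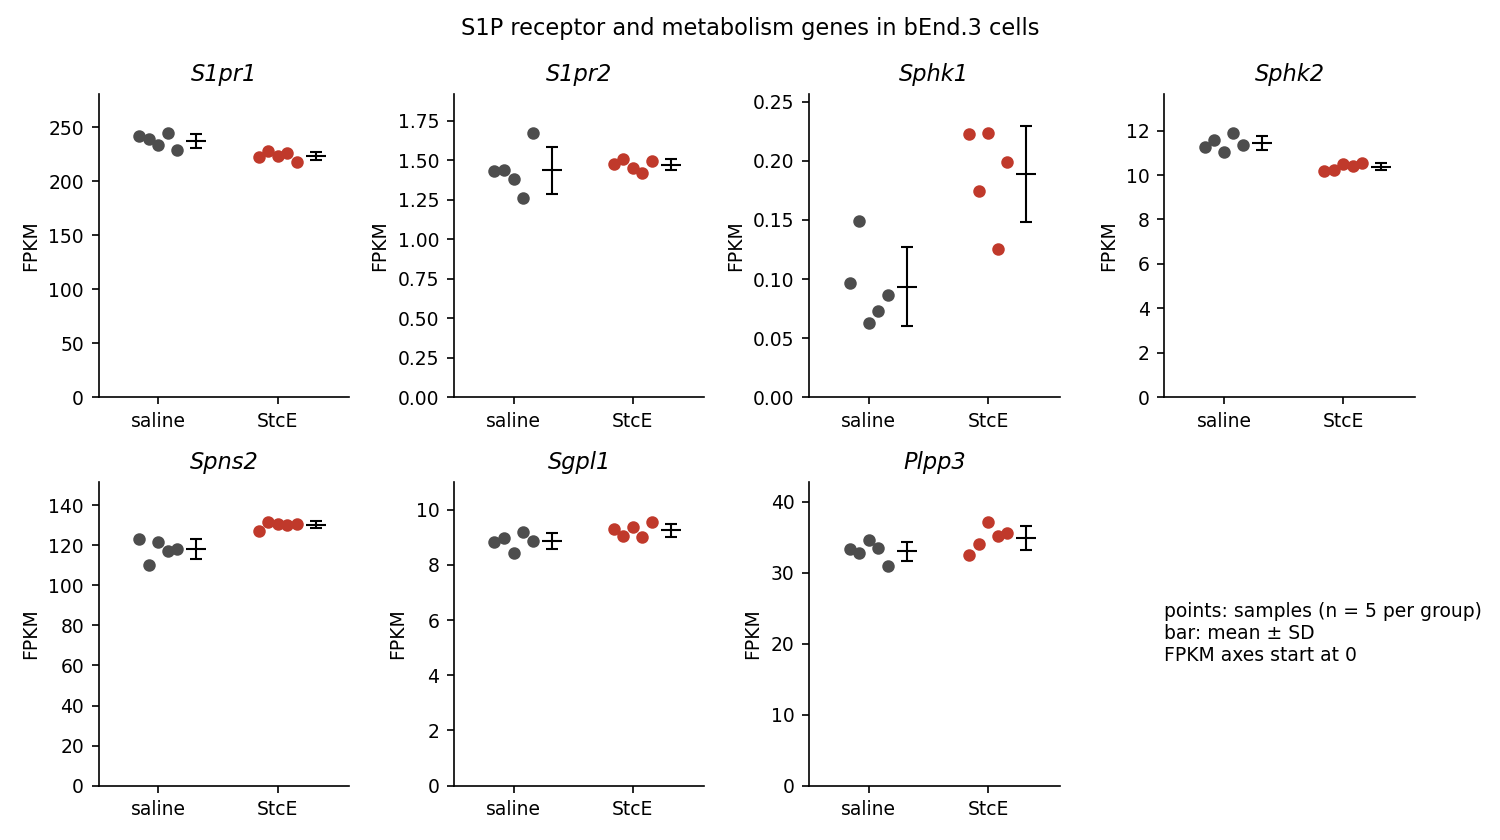
FPKM (vertical axes, starting at 0) of the 7 members in each saline (grey) and StcE (red) sample, with the mean and SD of each group (n = 5) as a black bar. The StcE points lie below all saline points for *S1pr1* and *Sphk2* and above them for *Spns2*, and overlap with them for the other members.

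Among the receptors, *S1pr1* (chromosome 3, 115710433 to 115715072 on the minus strand of GRCm38, protein coding) had 241.8, 239.5, 233.5, 244.8 and 229.0 FPKM in saline replicates 1 to 5 and 222.6, 227.8, 223.7, 226.2 and 218.4 FPKM in StcE replicates 1, 2, 3, 5 and 6. No StcE sample reached the lowest saline value, although the gap between StcE replicate 2 and saline replicate 5 was narrow. The mean fell from 237.7 ± 6.41 FPKM (SD, n = 5) to 223.7 ± 3.63 FPKM (SD, n = 5), a difference in log2(FPKM + 1) of -0.087 (standard error 0.0233, limma adjusted p = 0.0340, exact two-sided permutation p = 0.00794, the smallest that 5 samples against 5 allow). The call was close to the threshold. It was lost in 7 of the 10 fits that each left out 1 sample (without saline replicates 1, 2 or 4, or StcE replicates 1, 3, 5 or 6), with limma adjusted p of 0.0565 to 0.0819, and with no filter on low FPKM (0.0789), with eBayes without trend (0.0570) and with scaling by the sum of FPKM (0.0852). Between 15950 and 24131 fragments per sample lay behind these values. Of the 8 endothelial markers, 5 were also lower past the threshold, as given above, and their part in the *S1pr1* result was not tested. In bulk samples of a single cell line, a smaller share of cells with *S1pr1* and less *S1pr1* RNA per cell cannot be told apart.

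*S1pr2* (chromosome 9, 20962361 to 20976781, minus strand) was expressed at 1.43, 1.44, 1.38, 1.26 and 1.67 FPKM in saline replicates 1 to 5 and 1.48, 1.51, 1.45, 1.42 and 1.5 FPKM in StcE replicates 1, 2, 3, 5 and 6. The StcE samples lay inside the saline range, and their SD was smaller (0.0359 against 0.149 FPKM). The difference in log2(FPKM + 1) was 0.022 (95% confidence interval -0.085 to 0.13, limma adjusted p = 0.809). Of the other receptors, *S1pr4*, known mainly from lymphoid cells, had 0.198 ± 0.0607 and 0.235 ± 0.0788 FPKM (SD, n = 5 each), and *S1pr5* had a single fragment over all 10 samples. *S1pr1* therefore supplied 99.2% to 99.4% of the summed FPKM of these 4 receptors in saline samples and 99.2% to 99.3% in StcE samples, and the sum itself went from 230.8 to 246.2 FPKM with saline to 220.1 to 229.5 FPKM with StcE.

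The means of the kinases lay on opposite sides of their saline levels. *Sphk2* (chromosome 7, 45709467 to 45718002, minus strand), whose enzyme makes S1P in the nucleus, mitochondria and endoplasmic reticulum, had 11.3, 11.6, 11.0, 11.9 and 11.4 FPKM in saline replicates 1 to 5 and 10.2, 10.2, 10.5, 10.4 and 10.6 FPKM in StcE replicates 1, 2, 3, 5 and 6. The highest StcE sample was under the lowest saline sample. The mean fell from 11.4 ± 0.317 to 10.4 ± 0.164 FPKM (SD, n = 5 each), a difference in log2(FPKM + 1) of -0.13 (standard error 0.0250, limma adjusted p = 0.00822, exact two-sided permutation p = 0.00794). The call was lost with scaling by the sum of FPKM (limma adjusted p = 0.0524). Of its exon length, 21.9% overlaps *Dbp* and *Rpl18* on the opposite strand. The libraries keep the strand, but whether counting used it is not given in the sources used here. It is therefore not known whether reads of these genes and of *Sphk2* were told apart there. *Rpl18*, a ribosomal protein gene, had 234.8 ± 9.39 and 234.5 ± 11.7 FPKM (SD, n = 5 each, limma adjusted p = 0.982), and *Dbp*, a circadian transcription factor gene, had 9.05 ± 0.573 and 8.5 ± 0.768 FPKM (limma adjusted p = 0.379).

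*Sphk1* (chromosome 11, 116530925 to 116536674, plus strand) encodes the kinase of the cytosol and plasma membrane, which is known as the inducible one. It had 14, 18, 8, 8 and 10 fragments in saline replicates 1 to 5 and 25, 23, 37, 21 and 24 fragments in StcE replicates 1, 2, 3, 5 and 6, or 58 against 130 in all. Scaled to depth, these were 0.0964, 0.149, 0.0629, 0.0731 and 0.0862 FPKM with saline and 0.223, 0.174, 0.223, 0.126 and 0.199 FPKM with StcE. The groups overlapped only through StcE replicate 5, which lay below saline replicate 2. All values were above 3 fragments, which correspond to 0.0179 to 0.0274 FPKM. The means were 0.0935 ± 0.0334 and 0.189 ± 0.0408 FPKM (SD, n = 5 each), a ratio of 2.02, and the difference in log2(FPKM + 1), a scale that compresses such low values, was 0.12 (exact two-sided permutation p = 0.0159). An exact p under 0.05 was found for 9.23% of the 4962 genes with a mean FPKM from 0.1 to 1, and with StcE higher for 5.04%. With these genes included in the fit, *Sphk1* did not pass (limma adjusted p = 0.113 with a minimum of 0.1 FPKM and 0.0581 with no filter). *Sphk1* made up 0.566% to 1.27% of the summed kinase FPKM in saline samples and 1.19% to 2.14% in StcE samples, so *Sphk2* was the predominant kinase transcript throughout. An overlap with *Gm29292* on the opposite strand covers 4.02% of its exon length, and 8.39% of its longest transcript has near-identical copies in *Gm29292*, *Ccl9*, *Lockd* and *Slc25a51*, so some of the few fragments may be shared.

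**Figure D2:**
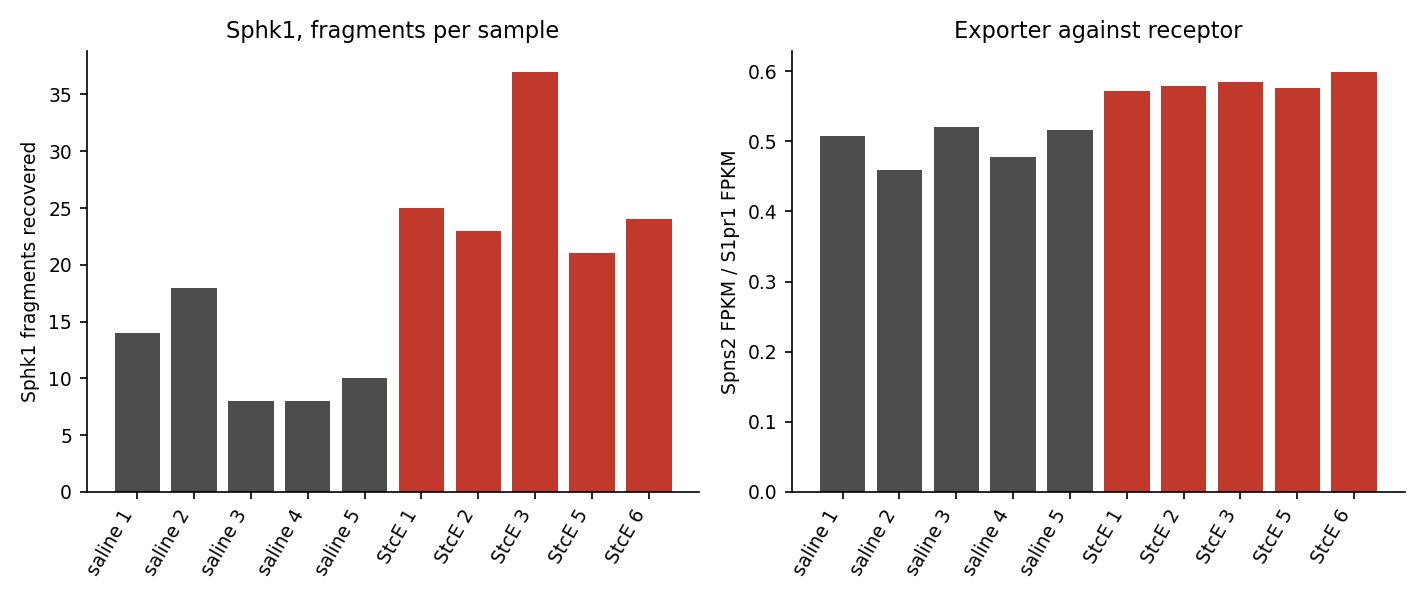
Left, *Sphk1* fragments recovered in each sample, not scaled to depth (8 to 18 with saline, 21 to 37 with StcE). Right, the ratio of *Spns2* FPKM to *S1pr1* FPKM in each sample, which is 0.460 to 0.521 with saline (grey) and 0.572 to 0.599 with StcE (red). Its separation follows from that of each gene, in opposite directions.

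The exporter *Spns2* (chromosome 11, 72451638 to 72489904, minus strand), through which endothelial cells release S1P, was the member with the largest called difference. It had 122.9, 110.1, 121.6, 117.0 and 118.1 FPKM in saline replicates 1 to 5 and 127.2, 131.8, 130.6, 130.1 and 130.8 FPKM in StcE replicates 1, 2, 3, 5 and 6. The lowest StcE sample exceeded the highest saline sample, and the StcE samples were close together (coefficient of variation 1.33% against 4.25%). The mean rose from 117.9 ± 5.01 to 130.1 ± 1.73 FPKM (SD, n = 5 each), a difference in log2(FPKM + 1) of 0.14 (standard error 0.0289, limma adjusted p = 0.00936, exact two-sided permutation p = 0.00794). *Mybbp1a*, which overlaps 3.21% of its exon length on the opposite strand, also rose, from 93.4 ± 2.14 to 98.3 ± 1.18 FPKM (limma adjusted p = 0.0429), and its part in the *Spns2* value was not tested. Within each sample, the ratio of *Spns2* to *S1pr1* FPKM was 0.460 to 0.521 with saline and 0.572 to 0.599 with StcE, without overlap. This separation follows from those of the genes themselves, in opposite directions, and is no further result. *Spns2* (22 of 23 alternative settings) and *Sphk2* (21 of 23) stayed past the threshold more often than *S1pr1* (11 of 23).

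**Figure D3:**
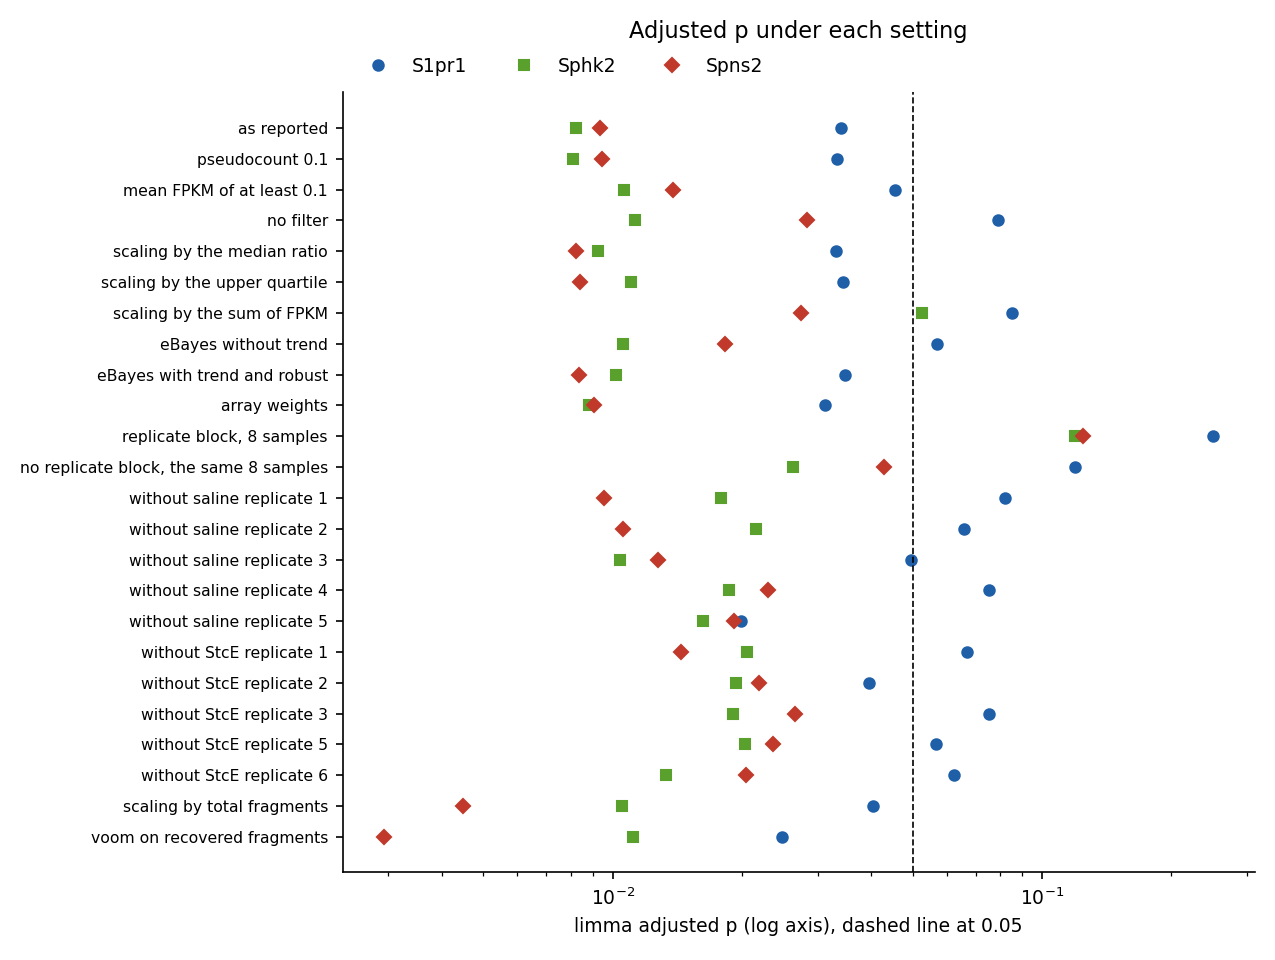
limma adjusted p (horizontal log axis, dashed line at 0.05) of *S1pr1*, *Sphk2* and *Spns2* under the reported setting and 23 alternatives. *S1pr1* crosses the line in 12 of them, *Sphk2* in 2 and *Spns2* in 1.

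The sequences before the transcription starts of the called members *Spns2* and *Sphk2* are shown with promoter motifs that a search found. They come from RefSeq on GRCm38.p6, where 6 of the 7 members had such a window. The *Spns2* window is chr11:72475028-72475277 and the *Sphk2* window chr7:45715208-45715456, each read on the minus strand from 5′ to 3′ and ending next to a RefSeq start that is also a GENCODE vM21 transcript start. Both starts lie inside the annotated gene. A second *Sphk2* window, at the outer end of the gene, is not shown because 233 of its 250 bases lie in exons of *Rpl18*. Capitals mark a CCAAT box (CCAAT) or a GC box (GGGCGG) on either strand.
Spns2: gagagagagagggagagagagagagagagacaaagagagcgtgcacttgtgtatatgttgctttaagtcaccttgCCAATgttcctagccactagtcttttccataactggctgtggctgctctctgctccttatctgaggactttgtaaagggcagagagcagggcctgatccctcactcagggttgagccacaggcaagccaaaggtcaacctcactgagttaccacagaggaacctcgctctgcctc
Sphk2: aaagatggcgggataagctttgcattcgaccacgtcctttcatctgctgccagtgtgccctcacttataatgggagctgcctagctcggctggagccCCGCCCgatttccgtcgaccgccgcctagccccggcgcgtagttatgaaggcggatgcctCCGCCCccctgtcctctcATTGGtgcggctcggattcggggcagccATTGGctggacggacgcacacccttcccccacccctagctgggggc
The *Spns2* window held 1 CCAAT box, beginning 175 bases before the start. The *Sphk2* window held 2, beginning 74 and 46 bases before the start, and 2 GC boxes, beginning 152 and 92 bases before it, all 4 read on the opposite strand. Of 32851 windows of 250 bases in the table, 33.9% held a CCAAT box and 32.7% a GC box, so both are common. Neither window held a TATA box (TATAAA, in 12.4% of windows) or a cyclic AMP response element (TGACGTCA, in 1.55%).

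The genes that remove S1P did not pass the test. *Sgpl1* (chromosome 10, 61098642 to 61147703, minus strand) had 8.82, 8.99, 8.41, 9.20 and 8.87 FPKM in saline replicates 1 to 5 and 9.29, 9.05, 9.36, 9.0 and 9.57 FPKM in StcE replicates 1, 2, 3, 5 and 6. Of the StcE samples, 3 lay above all saline samples and the others inside their range. The means were 8.86 ± 0.287 and 9.25 ± 0.234 FPKM (SD, n = 5 each), and the difference in log2(FPKM + 1) was 0.057 (95% confidence interval -0.0052 to 0.12, limma adjusted p = 0.218, exact two-sided permutation p = 0.0397). *Plpp3* (chromosome 4, 105157347 to 105232764, plus strand) had 33.3, 32.8, 34.5, 33.4 and 30.9 FPKM in saline replicates 1 to 5 and 32.5, 34.0, 37.2, 35.1 and 35.6 FPKM in StcE replicates 1, 2, 3, 5 and 6. Here too 3 StcE samples lay above all saline samples. The means were 33.0 ± 1.31 and 34.9 ± 1.75 FPKM, with a difference in log2(FPKM + 1) of 0.077 (95% confidence interval -0.0050 to 0.16, limma adjusted p = 0.207, exact two-sided permutation p = 0.0952). The intervals leave room for increases of up to 0.12 and 0.16 on this scale.

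Around these members, 78 further gene names of sphingolipid metabolism and S1P signalling were listed, of which 75 had a row and 55 were tested. The names without a row include *Cert1* and *Adrbk1*, other names of *Col4a3bp* and *Grk2*, which had a row. Of the 55, 4 rose, 7 fell and 44 did not pass, which is 20% past the threshold against 11.9% of all genes tested. Their median difference was -0.014 on the log2(FPKM + 1) scale. None of the 5 tested genes among other S1P phosphatases, carriers and exporters passed. The most abundant was *Plpp2*, a lipid phosphatase of the same family as *Plpp3*, with 201.5 ± 7.08 and 206.1 ± 6.77 FPKM (SD, n = 5 each), followed by *Plpp1* (25.4 ± 1.10 and 25.3 ± 0.906 FPKM), the transporter *Abcc1* (15.5 ± 0.623 and 14.9 ± 0.989 FPKM), *Aldh3a2*, which oxidises the aldehyde made by the lyase (9.51 ± 0.177 and 8.96 ± 0.403 FPKM), and the S1P phosphatase *Sgpp1* (1.6 ± 0.120 and 1.59 ± 0.0937 FPKM). *Sgpp2*, the blood cell exporter *Mfsd2b* and the S1P carrier *Apom* averaged at most 0.123 FPKM in either group.

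Among the genes that supply sphingosine and ceramide, *Asah1*, the lysosomal acid ceramidase that frees sphingosine from ceramide, rose from 35.4 ± 0.649 to 39.9 ± 0.635 FPKM (SD, n = 5 each), a difference in log2(FPKM + 1) of 0.17 (limma adjusted p = 5.0e-04). It was the only 1 of 3 tested ceramidases past the threshold (33.3%, against 11.9% of all genes tested). Its groups did not overlap, as was the case for 10.7% of all genes tested. The Golgi ceramidase *Acer2* missed the minimum of 1 FPKM and is named here after its values were seen. It had 0.958 to 1.23 FPKM with saline and 0.622 to 0.834 FPKM with StcE (exact two-sided permutation p = 0.00794). Of the 20 listed genes with a mean under 1 FPKM, 7 averaged 0.1 FPKM or more, and *Acer2*, the sphingomyelinase *Smpd3* and the lysophosphatidic acid receptor *Lpar1* were the 3 of these without overlap, each lower after StcE. Of all 4962 genes with a mean FPKM from 0.1 to 1, 2.34% had no overlap and 1.25% were lower without overlap. By rank of mean FPKM, these 3 genes (11278th, 12229th and 11404th of all rows) lie in the upper part of that range.

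In ceramide synthesis, 2 of 11 tested genes rose and 1 fell. That is 27.3% past the threshold, against 11.9% of all genes tested. *Cers4*, a ceramide synthase, went from 6.25 ± 0.309 to 7.31 ± 0.340 FPKM (SD, n = 5 each), a difference in log2(FPKM + 1) of 0.20 (limma adjusted p = 0.00760). Genes on the opposite strand overlap 8.97% of its exons by length. *Ormdl2*, of a family that restrains serine palmitoyltransferase, rose by 0.15 (limma adjusted p = 0.0232), and *Dnajc14* on the opposite strand overlaps 66.7% of its exons by length. Near-identical copies in *Dnajc14* and *Gm43105* cover 91.5% of the longest *Ormdl2* transcript, and their part in the *Ormdl2* value was not tested. *Sptlc2*, a subunit of serine palmitoyltransferase, the first enzyme of the pathway, fell from 18.2 ± 0.602 to 16.9 ± 0.297 FPKM (limma adjusted p = 0.0292).

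Among sphingomyelin and glycosphingolipid enzymes, 1 of 15 tested genes rose and 2 fell. That is 20% past the threshold, against 11.9% of all genes tested. *Smpd1*, the acid sphingomyelinase that makes ceramide in lysosomes, fell from 21.1 ± 0.563 to 18.5 ± 0.572 FPKM (SD, n = 5 each), a difference in log2(FPKM + 1) of -0.19 (limma adjusted p = 0.00167). *Cerk*, the ceramide kinase, fell from 13.5 ± 0.501 to 12.3 ± 0.553 FPKM (limma adjusted p = 0.0372), with overlapping groups. *B4galt5*, which makes lactosylceramide, rose from 41.8 ± 2.12 to 47.0 ± 1.5 FPKM (limma adjusted p = 0.0118).

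Downstream of the receptors, 3 of 19 tested genes passed the threshold, all of them lower, which is 15.8% against 11.9% of all genes tested and 6.41% lower. *Gnai2*, the most abundant Gi subunit gene of the list and the kind of G protein that S1PR1 uses, fell from 388.4 ± 8.43 to 361.6 ± 3.15 FPKM (SD, n = 5 each), a difference in log2(FPKM + 1) of -0.10 (limma adjusted p = 0.00878). The other Gi subunit genes listed went the other way without passing, *Gnai1* by 0.088 (limma adjusted p = 0.150) and *Gnai3* by 0.063 (limma adjusted p = 0.119). *Gnaq*, a G protein subunit that activates phospholipase C, went from 39.1 ± 1.10 to 35.3 ± 1.96 FPKM (-0.14, limma adjusted p = 0.0279), and the phospholipase *Plcb3* from 22.1 ± 0.283 to 20.3 ± 0.529 FPKM (-0.11, limma adjusted p = 0.00901). The effectors *Rac1*, *Rhoa* and *Akt1* and the receptor kinase *Grk2* differed by -0.018 to 0.015 and did not pass. Closest to the threshold among those that did not pass were *Nos3*, the endothelial nitric oxide synthase, with a difference of 0.10 (95% confidence interval 0.031 to 0.17, limma adjusted p = 0.0628), the G protein subunit *Gna12*, with -0.13 (-0.22 to -0.040, limma adjusted p = 0.0640), and the arrestin *Arrb1*, with -0.11 (-0.19 to -0.026, limma adjusted p = 0.0857). Of the receptors for lysophosphatidic acid, the related lipid that PLPP enzymes also dephosphorylate, 2 were tested. Only *Lpar6* passed (50%, against 11.9% of all genes tested), falling from 15.0 ± 0.896 to 13.1 ± 0.622 FPKM (limma adjusted p = 0.0190). *Rb1* on the opposite strand overlaps 7.56% of the *Lpar6* exon length. Near-identical copies in *Rb1*, *Fut8*, *Gm9964* and *Mterf3* cover 10.7% of the longest *Lpar6* transcript.

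**Figure D4:**
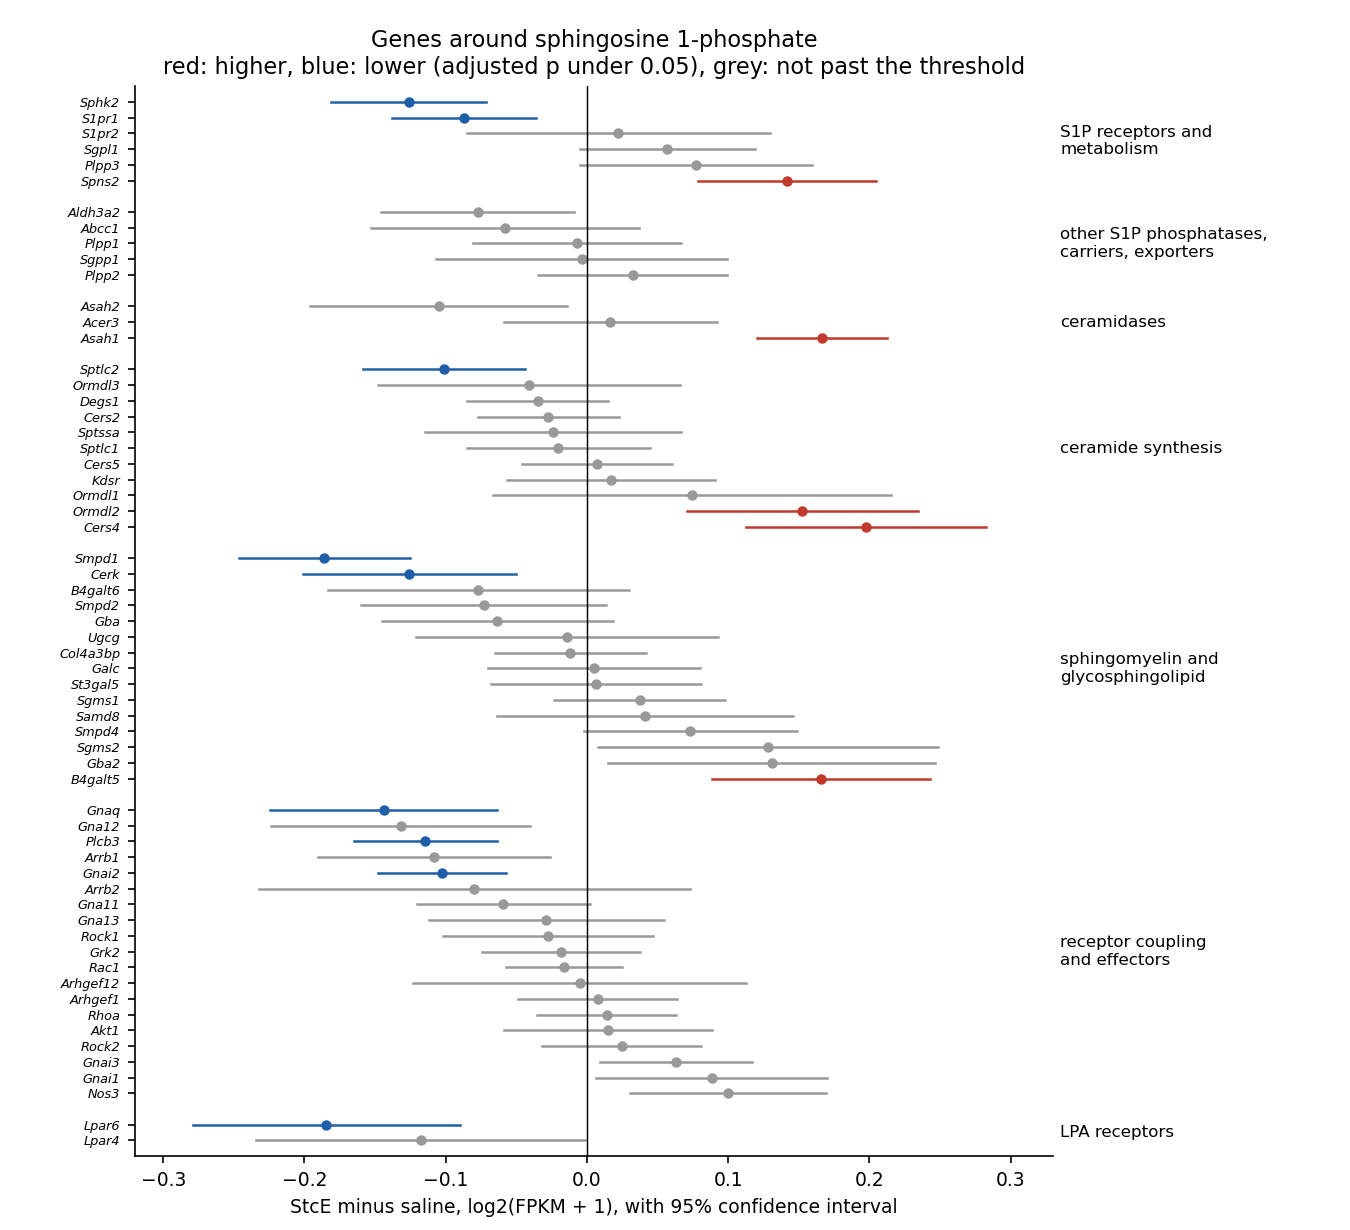
Difference in log2(FPKM + 1), StcE minus saline, with its 95% confidence interval (horizontal axis) for the 6 tested members and the 55 other tested genes, grouped by role. Red and blue mark the genes past the threshold (1 higher and 2 lower among the members, 4 higher and 7 lower among the others), and no difference exceeds 0.20 in size.

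For each called member, the 3 tested genes whose log2(FPKM + 1) followed it most closely over the 10 samples were found. The correlations are descriptions, since the samples form 2 groups and the group difference enters them. *Shisa5* (Pearson r = 0.972, n = 10), *Ccdc184* (0.970) and *Aplp1* (0.956) were most like *S1pr1*. *Fli1* (0.973), *Sept4* (0.964) and *Thsd1* (0.960) were most like *Sphk2*, and *Klf5* (0.976), *Fbxo28* (0.971) and *Foxk2* (0.965) were most like *Spns2*. All 9 were themselves past the threshold, in the direction of the member they followed, which follows largely from how they were chosen.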

How the data were processed

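RNA of 10 samples was purified with poly-T beads, and strand-specific libraries were sequenced as read pairs. The authors aligned trimmed reads to GRCm38 (mm10) and deposited FPKM values, 1 column per sample. The submitters' processing notes name HISAT2 2.0.5, featureCounts 1.5.0-p3 and DESeq2 1.32.0. The annotation release and strand setting are not given in the sources used here. A further 22874 rows had no gene name, and 12 names were repeated, none of them a member.

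For genes averaging 1 FPKM or more over the 10 samples, log2(FPKM + 1) was fitted with limma 3.58.1 (R 4.3.3; lmFit, eBayes with trend), with a term for treatment alone and p-values adjusted by Benjamini-Hochberg over all 11062 genes. Single genes were also tested by exact two-sided permutation over 252 arrangements. The procedure was tested on simulated data. Multiplying FPKM by the GENCODE vM21 exon length and dividing by the value of 1 fragment on 1 kb in that sample gave whole fragments (within 0.02, or 5e-06 of the count) for 96.4% of values above 0. Copies were searched with BLAST 2.17.0 (at least 95% identity over 150 bases).

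The members, pathway lists and tests were chosen with earlier results of these data known. Text names every member, every listed gene past the threshold, the other S1P receptors, phosphatases, carriers and exporters, and the 3 genes most correlated with each called member. *Acer2*, *Smpd3*, *Lpar1*, *Cdh5*, *Kdr*, *Cldn5*, *Acta2*, *Stmn2*, *Gnai1*, *Gnai3*, *Rac1*, *Rhoa*, *Akt1*, *Grk2*, *Nos3*, *Gna12*, *Arrb1* and the overlapping genes were chosen after their values were seen. Alternatives were a pseudocount of 0.1, a minimum of 0.1 FPKM or none, other scalings, variance models, array weights, a replicate block and each sample left out. Scaling by total fragments and voom on fragments were added after seeing the data.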

Additional observations from a re-analysis of the deposited data

How the results depend on the processing

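The direction of *S1pr1*, *Sphk1*, *Sphk2*, *Sgpl1*, *Spns2* and *Plpp3* was the same in every alternative fitted, and *Sgpl1* and *Plpp3* passed the threshold in none. *Spns2* was past it in 22 of 23, *Sphk2* in 21 and *S1pr1* in 11. For *Sphk1*, an unadjusted exact permutation p was under 0.05 in 15 of 18, and no limma adjusted p was under 0.05. *Sphk1* has no value for the replicate block, the variance models, array weights and voom, where it was not tested. With no filter, 801 genes were past the threshold against 1320, and *S1pr1* (-0.087, limma adjusted p = 0.0789) and *Sphk1* (0.12, limma adjusted p = 0.0581) did not pass, nor did *Sphk1* with a minimum of 0.1 FPKM (0.12, limma adjusted p = 0.113). More genes are tested in these fits. Scaling by the sum of FPKM gave 790 genes, 65.6% of them lower against 53.7%, with *S1pr1* at -0.099 (limma adjusted p = 0.0852) and *Sphk2* at -0.14 (0.0524) not past it, and eBayes without trend left *S1pr1* at -0.087 (0.0570), where the cause was not tested.

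With a replicate block, fitted to the 8 samples whose number occurs in both groups, 349 genes and 3 of the other pathway genes (against 11) were past the threshold. *S1pr1* (-0.067, limma adjusted p = 0.250), *Sphk2* (-0.12, 0.120) and *Spns2* (0.14, 0.125) did not pass, and *S1pr2* was at -0.0077. The same 8 samples with no block gave 885 genes and 11 of the other pathway genes, with *Sphk2* (0.0263) and *Spns2* (0.0428) past the threshold, and *S1pr1* at -0.067 (0.119), *S1pr2* at -0.0077 and *Sphk1* at 0.11 (exact permutation p = 0.0571), none of these 3 past it. No pairing by number was seen, since same-numbered samples had correlations of -0.097 to 0.054 in their deviations from the group means.

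With each of the 10 samples left out in turn, 793 (without StcE replicate 3) to 1255 genes were past the threshold, with 838 without saline replicate 1, and 7 (without StcE replicate 3) to 11 of the other pathway genes. The differences ranged from -0.10 to -0.076 for *S1pr1* and from -0.0041 (without saline replicate 4) to 0.056 for *S1pr2*. Depth limits *Sphk1*, with 8 to 37 fragments per sample.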
